A study of Homo sapiens with 6 samples.

Results

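The genes examined here encode the energy-sensing kinase AMPK, its upstream kinase LKB1 with the LKB1 partner MO25alpha, and the PGC-1 coactivators. They are 10 genes chosen by symbol, of 22933 gene symbols in the whole table: PRKAA1 and PRKAA2 (AMPK catalytic alpha subunits), PRKAB1 and PRKAB2 (beta subunits), PRKAG1 and PRKAG2 (gamma subunits), STK11 (LKB1), CAB39 (MO25alpha), PPARGC1A and PPARGC1B (PGC-1alpha and PGC-1beta). Where a symbol stood at more than 1 locus, the row naming the most RefSeq transcripts represented it, and ties went to the higher summed FPKM. RNA-Seq was performed on PC-3 cells, an established human prostate cancer line, to ask what tristetraprolin (TTP) does to the transcripts of these cells. All cells carried the Tet-On transactivator and were selected with G418, then transduced with a tdTomato vector (tdTom) or with a vector encoding both TTP and tdTomato (TTP-tdTom) and sorted for red fluorescence. Both groups, 3 samples each, received 300 ng/ml doxycycline (Dox) for 4 h, so the control group carries the transactivator, the fluorescent protein and the drug as well. The cells are virally transduced populations of 1 line with a forced TTP transgene, which limits them as a model of endogenous TTP.

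AMPK is a heterotrimer. The alpha subunit carries the kinase, the beta subunit holds the complex together and binds glycogen, and the gamma subunit binds AMP, ADP and ATP. LKB1, held in its active form by the pseudokinase STRAD and by MO25, phosphorylates the activation loop of alpha when energy is low, and AMPK then slows lipid and protein synthesis and favours catabolism. PGC-1alpha and PGC-1beta bind nuclear receptors such as ERRalpha and other factors such as NRF1, and drive genes of mitochondrial respiration. TTP binds AU-rich elements in 3′UTRs and recruits the deadenylation machinery, which shortens the life of the mRNA.

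The deposited table holds 1 FPKM value per group at each locus (fragments scaled by transcript length and by the size of the library, a level per length that can be set side by side between genes). No value per sample was used, so no spread between replicates, no error and no test can be given, and every difference below describes the 2 pooled group values. The fragments behind each value are unknown. A change is log2 of the TTP-tdTom FPKM over the tdTom FPKM, negative where the level was lower with TTP. The minimum was 1 FPKM in either group with no group at 0, which 13004 symbols met. In that set 10203 symbols, or 78.5%, were lower with TTP and the median change was -0.23 (25th to 75th percentile -0.54 to -0.03). The locus of ZFP36, which encodes TTP, read 5.56 FPKM in tdTom and 5.54 in TTP-tdTom, so the transgene was not seen at this locus and the labels could not be checked by it. Epithelial keratin genes were present in both groups, with KRT8 at 20.9 and 19.1, KRT18 at 98.2 and 91.5 and KRT19 at 60.2 and 67.1 FPKM in tdTom and TTP-tdTom, as was EPCAM at 15.1 and 16.8. CDH1 stood at 0.119 and 0.390. The prostate luminal genes were low, with KLK2 at 0.333 and 0.434, KLK3 at 1.12 and 0.681 and TMPRSS2 at 1.78 and 2.53. Of the leukocyte, endothelial and fibroblast markers, PTPRC, CD3E, PECAM1, VWF and DCN stayed below 1 FPKM in both groups and COL1A1 stood at 4.34 and 4.56. In RNA from a whole cell population, fewer cells with a transcript and less of it per cell cannot be told apart.

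Of the 10 genes, 9 passed the minimum, and the 3 with the largest change were both alpha subunits and CAB39. PRKAA1 and PRKAA2 were at least 2-fold lower with TTP, which makes 2 of 9 members against 8.65% of all symbols. With CAB39, 3 of 9 were at least 1.5-fold lower, against 22.8%. No member was at least 1.5-fold higher (3.9% of all symbols) or 2-fold higher (2.45%). In all, 8 members were lower and 1, PRKAB2, was higher, with a median change of -0.48 beside -0.23 over all symbols. Relative to the median of all symbols, PRKAA1 and PRKAA2 lay at -0.88 and CAB39 at -0.62. On this scale 0 members were 2-fold lower (4.24% of all symbols) and the same 3 were 1.5-fold lower (13.6%). Relative to the median of symbols with similar transcript GC content, 0 of 9 were 1.5-fold lower (7.76% of the 11876 symbols with an annotated transcript). With so few members these shares are counts and carry no test.

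**Figure D1:**
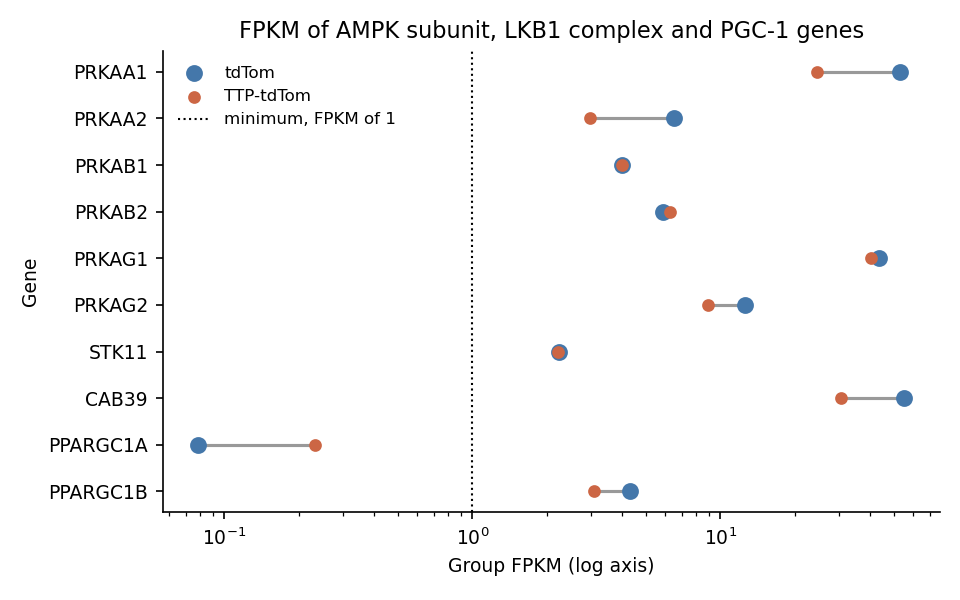
Group FPKM of the 10 genes on a log axis, with large blue points for tdTom, small orange points for TTP-tdTom, a grey line joining them and a dotted line at the minimum of 1 FPKM. PRKAA1, PRKAA2 and CAB39 show the longest lines towards lower values, the points of PRKAB1 and STK11 coincide, and PPARGC1A lies left of the minimum in both groups.

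In control cells the levels spanned a wide range. CAB39 was the most abundant at 55.2 FPKM, followed by PRKAA1 at 53.0 and PRKAG1 at 43.7. PRKAG2 at 12.5 came next, then PRKAA2 at 6.47, PRKAB2 at 5.86, PPARGC1B at 4.33, PRKAB1 at 4.00 and STK11 at 2.24, with PPARGC1A last at 0.0783. With TTP the order at the top changed to PRKAG1 at 40.3, CAB39 at 30.5 and PRKAA1 at 24.5, and PRKAA2 at 2.99 moved below PRKAB2, PRKAB1 and PPARGC1B. Without a spread over samples, it cannot be said which neighbours in this order differ.

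PRKAA1, the gene of alpha1 (GRCh37 chr5:40759481-40798297, minus strand), went from 53.0 FPKM in tdTom to 24.5 in TTP-tdTom. This is a change of -1.11, or 2.17-fold lower, leaving 46.2% of the control level. PRKAA2, the gene of alpha2 (chr1:57110990-57181008, plus strand), went from 6.47 to 2.99 FPKM, which is also -1.11 and 2.17-fold, leaving 46.2%. The alpha isoforms thus lay at levels 8.19-fold apart in both groups. Their log2 changes differed by 0.00015, a difference of pooled values for which no error is known. Among all 13004 symbols, 6.31% had a lower log2 change than PRKAA1 and 6.32% a lower one than PRKAA2. Symbols of similar mean expression as PRKAA1 ran from -1.25 to 0.11 between their 5th and 95th percentiles, and 7.15% of them lay below it. For PRKAA2 the same range was -1.09 to 0.24, with 4.38% below.

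The longest annotated 3′UTRs of these isoforms differ in copies of an AU-rich heptamer. Whether the heptamer bears on their changes was not tested. The heptamer UAUUUAU, a core of AU-rich elements, was searched on the transcript strand in 1 annotated 3′UTR per gene, the longest (GENCODE release 29, assembly GRCh38). PRKAA1 has a 3′UTR of 3399 bases, 67.9% A and U, without the heptamer, whereas 59.2% of symbols with a 3′UTR within 20% of that length hold it. PRKAA2 has 7622 bases and 6 heptamers, none of them inside the nonamer UUAUUUAUU, and 79.8% of symbols of like length hold at least 1. The 6 stretches are shown, with the heptamer in capitals and its bases counted from the first base after the stop codon, because PRKAA2 holds the most copies among the 10 genes.
PRKAA2 673 to 679: ccugaauaauaUAUUUAUcuuaagagccuu
PRKAA2 809 to 815: cuuuuugccucUAUUUAUuuuugcauuuca
PRKAA2 1367 to 1373: uaucuaauuugUAUUUAUucauuuguuauu
PRKAA2 2157 to 2163: auucuugccagUAUUUAUgaacagcuguag
PRKAA2 4713 to 4719: auuaucugaagUAUUUAUgauuagcauauu
PRKAA2 7252 to 7258: acuucauuacgUAUUUAUugaaaauuuuuu
The windows are 63.3% to 86.7% A and U and lie across most of the 3′UTR. A match describes the letters only, and no binding was measured. RefSeq transcript NM_206907, also at the PRKAA1 locus, has a 3′UTR of 8 bases, and the FPKM of the locus does not separate it from NM_006251, which has the long one.

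The beta subunits did not share the lower levels of alpha. PRKAB1 (chr12:120105761-120119429, plus strand) stood at 4.00 FPKM in both groups, 99.9% of the control. PRKAB2 (chr1:146625490-146644200, minus strand) stood at 5.86 in tdTom and 6.25 in TTP-tdTom, a change of 0.09 and 107% of the control, above the log2 change of 84.8% of all symbols. Neither 3′UTR holds the heptamer. That of PRKAB1 has 1305 bases, a length at which 30.0% of symbols hold it, and that of PRKAB2 has 4459 bases, a length at which 68.2% do. Relative to the median of all symbols both changes lay above 0, at 0.23 for PRKAB1 and 0.33 for PRKAB2.

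The gamma subunits lay between. PRKAG1 (chr12:49395915-49455654, minus strand) went from 43.7 to 40.3 FPKM, a change of -0.12 that turned to 0.12 relative to the median of all symbols. Its locus also carries a RefSeq transcript of the neighbouring MLL2, so its FPKM is that of a joined locus, and the share of each gene in it was not tested. PRKAG2 (chr7:151253181-151576308, minus strand) went from 12.5 to 8.90 FPKM, a change of -0.49 with 71.0% of the control left. The ratio of PRKAG1 to PRKAG2 was 3.49 in tdTom and 4.53 in TTP-tdTom. The PRKAG1 3′UTR, at 621 bases, holds no heptamer (18.7% of symbols of like length do). PRKAG2, at 1090 bases, holds 1 (24.7% do), and its copy lies inside the nonamer, which 9.46% of all 11826 symbols with a 3′UTR contain.
PRKAG2 593 to 599: uacaacagcuuUAUUUAUuuuuacuuucau
This stretch is shown as the only heptamer of the gamma genes, with the heptamer in capitals and the U on each side completing the nonamer. Transcript NM_001040633 at the same locus has a shorter 3′UTR of 260 bases without it.

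Summed by class, the alpha transcripts moved apart from their partners. The alpha sum went from 59.5 to 27.5 FPKM (-1.11), and PRKAA1 made up 89.1% of it in both groups. The beta sum was 9.86 and 10.2 FPKM (0.06), with PRKAB1 at 40.6% of it in tdTom and 39.0% in TTP-tdTom. The gamma sum was 56.3 and 49.2 FPKM (-0.19), with PRKAG1 at 77.7% and 81.9%. The ratio of alpha to beta transcripts was 6.03 in tdTom and 2.68 in TTP-tdTom, and that of alpha to gamma was 1.06 and 0.558. Beta was the scarcest class in both groups, while gamma to beta went from 5.71 to 4.80. A ratio within a group does not depend on the scaling of that group, but it is not adjusted for transcript GC content. Relative to the median of symbols with similar GC content, PRKAA1 and PRKAA2 each lay at -0.36. On that scale PRKAB1 lay at 0.14, PRKAB2 at 0.51, PRKAG1 at 0.13 and PRKAG2 at -0.24. The gamma sum also includes the PRKAG1 locus joined with MLL2. Protein levels were not measured.

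**Figure D2:**
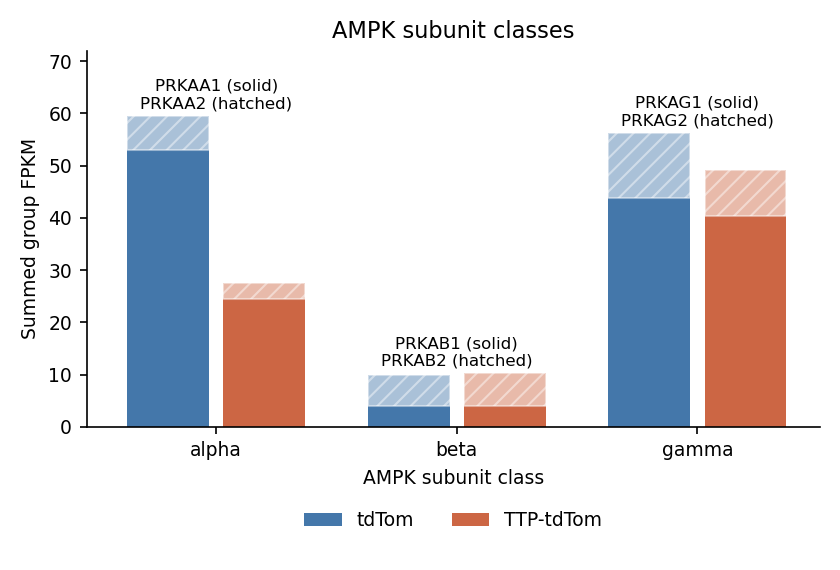
Summed group FPKM of the AMPK alpha, beta and gamma genes, with blue bars for tdTom, orange bars for TTP-tdTom, solid parts for the first isoform and hatched parts for the second. The alpha bar is 59.5 FPKM in tdTom and 27.5 in TTP-tdTom, while the beta bars are 9.86 and 10.2.

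STK11, the gene of LKB1 (chr19:1205798-1228969, plus strand), stood at 2.24 FPKM in tdTom and 2.21 in TTP-tdTom, 98.7% of the control and a change of -0.02 that turned to 0.22 relative to the median of all symbols. The table holds another STK11 row with the same RefSeq transcript and coordinates, at 2.76 FPKM in tdTom and 1.28 in TTP-tdTom, a change of -1.11. Locus identifiers run through the table in 2 series, the first of which holds 94.8% of the symbols annotated on the plus strand and the second 94.1% of those on the minus strand. The row used lies in the first series, that of the strand of STK11, and the other row in the second. Which row holds the STK11 transcript was not tested, and with the other row STK11 would have been the third member lower by at least 2-fold. With both rows summed the change was -0.52.

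CAB39, whose product MO25alpha stabilises the LKB1 complex (chr2:231577557-231685944, plus strand), went from 55.2 to 30.5 FPKM, a change of -0.85 and 1.81-fold lower, with 55.3% of the control left. Among all symbols 12.6% had a lower log2 change. The ratio of CAB39 to STK11 was 24.6 in tdTom and 13.8 in TTP-tdTom with the STK11 row used, and 20.0 and 23.9 with the other row, so that its direction depends on the row. CAB39 holds 1 heptamer in 2371 bases of 3′UTR, a length at which 47.5% of symbols hold one. The longest annotated 3′UTR of STK11, 3422 bases, holds none, while the 3′UTR of its RefSeq transcript NM_000455, 859 bases, holds 1. Both stretches are shown, with the heptamer in capitals, to set the kinase gene beside that of its partner.
CAB39 1339 to 1345: caaauuaucagUAUUUAUaaaguaacugau
STK11 722 to 728: ugugcggucaaUAUUUAUaucauccagaaa
The CAB39 window is 80% A and U and the STK11 window 66.7%. Transcripts NM_001130849 and NM_001130850 of CAB39 have annotated 3′UTRs of 46 and 0 bases without the heptamer, and the locus value does not separate them.

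Of the genes of PGC-1alpha and PGC-1beta, that of PGC-1beta alone passed the minimum. PPARGC1B (chr5:149109815-149236252, plus strand) went from 4.33 to 3.10 FPKM, a change of -0.48 with 71.6% of the control left, and 28.2% of symbols had a lower log2 change. PPARGC1A (chr4:23793644-23891700, minus strand) was listed at 0.0783 FPKM in tdTom and 0.233 in TTP-tdTom, both below the minimum, and no change is given for it. The 3′UTR of PPARGC1B has 7464 bases and 4 heptamers, 1 of them in a nonamer, at a length where 79.0% of symbols hold the heptamer. That of PPARGC1A has 3801 bases and 3 heptamers, at a length where 63.3% do. The windows of PPARGC1B are shown as those of the PGC-1 gene whose change could be measured, again with the heptamer in capitals.
PPARGC1B 457 to 463: uuaaaauaaugUAUUUAUggcucagaugua
PPARGC1B 6702 to 6708: guagggggcauUAUUUAUuaggaagcuuaa
PPARGC1B 6921 to 6927: aucugcuuuguUAUUUAUaauagaaagcua
PPARGC1B 7058 to 7064: gguuguguccuUAUUUAUauaaauacuuua
The copy at 6702 is the one in the nonamer, and 3 of the 4 copies lie in the last kilobase of the 3′UTR. Transcripts NM_001172699 and NM_001172698 at this locus end after 69 and 4 bases of 3′UTR and lack them all.

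**Figure D3:**
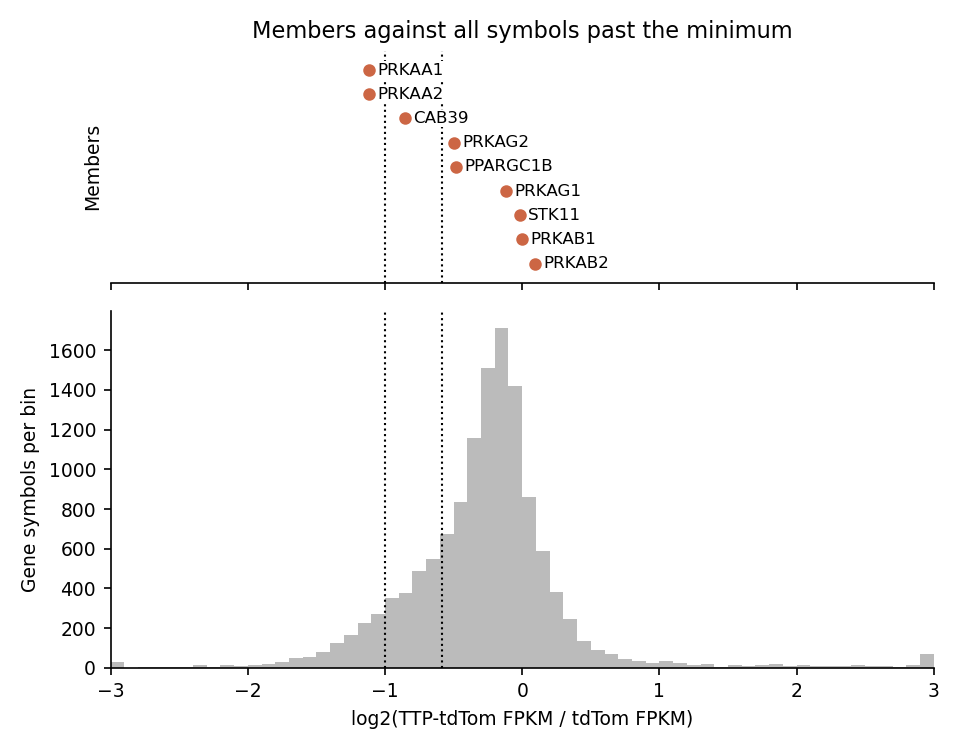
The upper panel places the 9 members past the minimum by their log2 change, and the lower panel counts all 13004 symbols in bins of 0.1, with values beyond 3 in either direction put in the end bins and dotted lines at 1.5-fold and 2-fold lower. PRKAA1 and PRKAA2 lie left of the 2-fold line, CAB39 lies between the lines, and the other 6 lie to the right of both.

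Sequence composition moved with the change across the 11876 symbols past the minimum that had an annotated transcript. Sorted by the GC content of the transcript into 10 equal groups, the median change ran from -0.75 in the group poorest in GC (28.6% to 38.3%), where 29.5% of symbols were at least 2-fold lower, to -0.09 in the richest, where 1.35% were. PRKAA1 at 35.3% GC and PRKAA2 at 35.2% belong to the poorest group, in which 22.1% and 22.2% of symbols had a lower log2 change than theirs. Relative to the median of their GC group, PRKAA1 and PRKAA2 each lay at -0.36 and CAB39 (41.8% GC) at -0.44. On this scale 0 of 9 members were at least 1.5-fold lower, beside 7.76% of the 11876 symbols with a transcript. On the same scale PPARGC1B lay at -0.29, PRKAG2 at -0.24, STK11 at 0.07, PRKAG1 at 0.13, PRKAB1 at 0.14 and PRKAB2 at 0.51. PRKAB2, at 41.4% GC, has a composition close to that of CAB39, and 91.5% of its GC group had a lower log2 change. The part of GC content in these differences was not tested.

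Heptamer counts also moved with the change over all symbols with a 3′UTR. The median change was -0.17 for 7564 symbols without the heptamer, -0.36 for 2442 with 1 and -0.57 for 1820 with 2 or more. In the GC group of the alpha genes the medians were -0.64, -0.73 and -0.85. PRKAA1, without the heptamer, lay below the 25th percentile of its class there, which was -0.96, and PRKAA2 lay between the 25th percentile of its own, -1.18, and the median. In the GC group of CAB39 and PRKAB2 the medians were -0.33, -0.48 and -0.55. Of the 9 members, 4 hold the heptamer in their longest 3′UTR (PRKAA2, PRKAG2, CAB39 and PPARGC1B), of which 4 had a negative change and 2 (PRKAA2 and CAB39) were at least 1.5-fold lower, beside 87.0% and 39.2% of all 4262 symbols with the heptamer. Of the 5 without it, 4 had a negative change (PRKAA1, PRKAB1, PRKAG1 and STK11) and 1, PRKAA1, was at least 1.5-fold lower, beside 75.7% and 14.0% of the symbols without it. STK11 is counted here by its longest annotated 3′UTR, whereas that of its RefSeq transcript NM_000455 holds 1 heptamer.

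**Figure D4:**
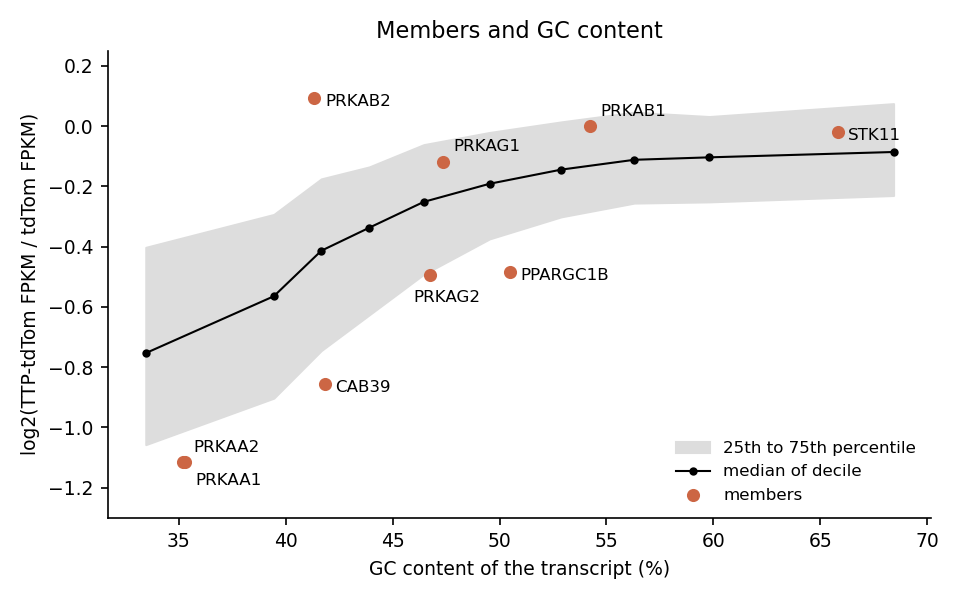
Log2 change against GC content of the transcript in percent, with a black line for the median of each of 10 GC groups of symbols, grey for their 25th to 75th percentiles and orange points for the 9 members. Both alpha genes lie at about 35% GC and a change of -1.11, below the grey band, as do CAB39 and PPARGC1B, while PRKAG2 lies at its lower edge and PRKAB2 above it.

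The other genes of the pathway were drawn from 8 lists of 86 genes, of which 79 passed the minimum. Among them 64, or 81.0%, were lower with TTP, beside 78.5% of all symbols. At least 1.5-fold lower were 25, or 31.6% (22.8% of all symbols), and at least 2-fold lower 5, or 6.33% (8.65%). At least 1.5-fold higher were 4, or 5.06% (3.9%), and at least 2-fold higher 2, or 2.53% (2.45%). Their median change was -0.30, beside -0.23. The counts of single lists below are to be read against the same shares of all symbols. Their values centred on the median of all symbols or of the GC group follow where a 1.5-fold call was lost or a median turned. For genes at least 2-fold lower at the rows used, the loss of that call on a centred scale is stated by gene. At least 1.5-fold lower were 13.6% of all symbols when centred on all symbols. Centred on the GC group, 7.76% of the 11876 symbols with a transcript were. The centred counts are to be read against these smaller shares.

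Of the genes nearest to AMPK and LKB1, the pseudokinases STRADA (22.2 and 22.1 FPKM in tdTom and TTP-tdTom) and STRADB (8.73 and 7.95) had log2 changes of -0.01 and -0.13, beside -0.85 for CAB39. Their median, -0.07, was 0.16 when centred on all symbols and 0.21 when centred on the GC group. PRKAG3, the gene of gamma3, and CAB39L, that of MO25beta, were below the minimum in both groups at the rows used. CAB39L has another row, at 3.07 and 1.45 FPKM (-1.08), so that with the row of the highest FPKM it passed the minimum and was at least 2-fold lower, and with both rows summed it read 3.48 and 2.11 (-0.72). Of 7 other AMPK kinases and phosphatases, 3 were at least 1.5-fold lower and the median change was -0.11. The count was 1 when centred on all symbols and 0 when centred on the GC group, with medians of 0.13 and 0.02, and with an FPKM of 1 or more required in both groups the median was -0.77. The lowest was PPM1B, a phosphatase of the PP2C family, at 9.81 and 4.45 FPKM (-1.14). Relative to the median of all symbols (-0.23) or of its GC group (-0.56), PPM1B was less than 2-fold lower. MAP3K7, the kinase TAK1, stood at 30.9 and 18.1 FPKM (-0.77), and CAMKK2, which phosphorylates the same alpha residue as LKB1, at 3.82 and 3.55 (-0.11). The highest value belonged to the phosphatase gene PPM1E at 0.387 and 5.16 FPKM (3.73), but this row lies in the series opposite to its annotated strand, and the other PPM1E row read 0.760 and 0.741.

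Among 12 kinases related to AMPK that LKB1 can phosphorylate or that belong to the same family, 3 were at least 1.5-fold lower, close to the 22.8% of all symbols, none was 1.5-fold higher and the median change was -0.25. Centred on all symbols, 0 of 12 were 1.5-fold lower (13.6% of all symbols) and the median was -0.02. Centred on the GC group, 0 of 12 were (7.76% of symbols with a transcript) and the median was -0.11. The 3 were SNRK at 5.41 and 3.21 FPKM (-0.75), MELK at 51.1 and 32.8 (-0.64) and BRSK2 at 1.28 and 0.846 (-0.59). NUAK2 was the highest at 1.36 and 1.81 (0.41). Of 7 AMPK regulators and adaptors, 2 were at least 1.5-fold lower and 1 was 1.5-fold higher, with a median of -0.33. Centred on all symbols 1 was 1.5-fold lower and on the GC group 0, with medians of -0.09 and 0.05. The folliculin partners FNIP1 (22.8 and 12.3 FPKM, -0.89) and FNIP2 (3.39 and 2.09, -0.70) were the lower ones, FLCN itself stood at 6.09 and 6.88 (0.18), and the stress-induced SESN2 was the highest at 2.61 and 3.93 (0.59).

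Of 17 AMPK substrates past the minimum, 3 were at least 1.5-fold lower and the median change was -0.22. Centred on all symbols 2 were and on the GC group 1, with medians of 0.01 and -0.03. Of the 3, CLIP1, a microtubule plus-end protein, stood at 30.1 and 16.4 FPKM (-0.88) and PFKFB3, which makes an activator of glycolysis, at 5.15 and 3.17 (-0.70). The acetyl-CoA carboxylase genes ACACA and ACACB had log2 changes of -0.22 and -0.30 and the autophagy kinase gene ULK1 one of -0.13. LIPE had the highest value, 1.63 and 2.95 FPKM (0.85), at a row in the series opposite to its annotated strand, and the LIPE row on its own strand read 0.540 and 0.496. Summed over its 6 loci LIPE read 7.15 and 4.59 FPKM (-0.64), the other direction, and 4 substrates were then at least 1.5-fold lower. The sum takes in rows of the opposite series, of which 1 read 3.25 FPKM in tdTom and 0 in TTP-tdTom.

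Of 14 transcription factors that PGC-1 proteins coactivate, 8 were at least 1.5-fold lower, 3 of them at least 2-fold, and the median change was -0.68. Centred on all symbols 6 were at least 1.5-fold lower (13.6% of all symbols), with a median of -0.44. Centred on the GC group 7 were (7.76% of symbols with a transcript), with a median of -0.53. The 3 genes 2-fold lower, MEF2A, GABPA and MEF2C, lay in GC groups with medians of -0.41, -0.75 and -0.56. Relative to these medians MEF2A stayed at least 2-fold lower, while GABPA and MEF2C did not. Centred on all symbols all 3 stayed at least 2-fold lower. MEF2A stood at 8.90 and 2.95 FPKM (-1.59), GABPA, the DNA-binding subunit of NRF2/GABP, at 46.5 and 16.3 (-1.52), and MEF2C at 38.0 and 16.1 (-1.24), with another MEF2C row on the opposite series at 0.404 and 1.40. PPARG stood at 35.4 and 18.9 (-0.91), NRF1 at 5.45 and 2.88 (-0.92) and ESRRA at 10.0 and 6.97 (-0.53). RXRA was the highest of this list at 6.26 and 6.91 (0.14). Of 10 other coactivators and corepressors, 3 were at least 1.5-fold lower, with a median of -0.34. Centred on all symbols 0 were and on the GC group 1, with medians of -0.11 and -0.07, and with FPKM rescaled to the same sum 1 was. The 3 were EP300 (22.2 and 13.2 FPKM, -0.75), the corepressor NRIP1 (34.5 and 22.5, -0.62) and the deacetylase SIRT1 (16.1 and 10.6, -0.60). The third PGC-1 family gene, PPRC1, was the highest at 8.20 and 8.86 (0.11).

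Of 10 genes of mitochondrial genome maintenance, 3 were at least 1.5-fold lower and the median change was -0.09. Centred on all symbols 2 were and on the GC group 0, and the medians turned positive, at 0.14 and 0.04. C10orf2 had no transcript GC content and is not in the GC-centred values. TFAM, which packages mitochondrial DNA and starts its transcription, was the lowest at 39.5 and 18.4 FPKM (-1.10), beside TFB2M at 6.99 and 3.75 (-0.90). Relative to the median of all symbols (-0.23) or of its GC group (-0.56), TFAM was less than 2-fold lower. POLG2, the third, lies in a locus joined with DDX5, and its value of 338 and 218 FPKM (-0.63) is that of both. MTERF was the highest at 7.08 and 20.6 (1.54), while the mitochondrial RNA polymerase POLRMT stood at 12.3 and 14.4 (0.23).

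**Figure D5:**
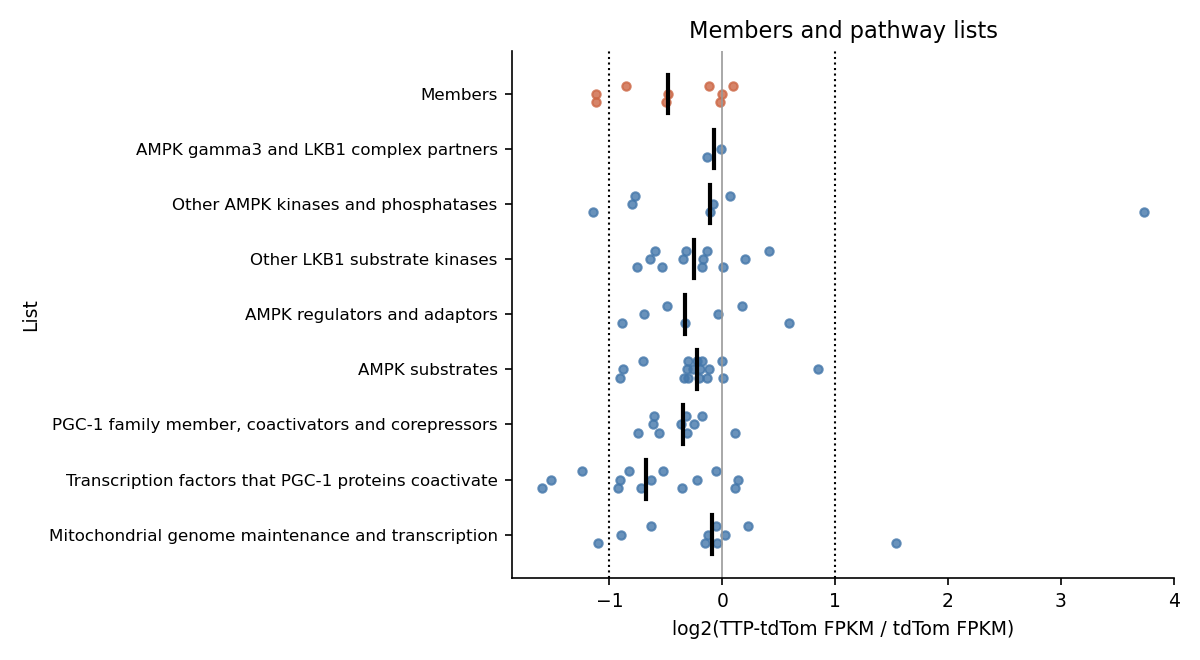
Log2 change of each gene past the minimum, with the 9 members in orange, the genes of the 8 pathway lists in blue, a black bar at each median and dotted lines at 2-fold in either direction. At the rows used, the medians run from -0.07 for the LKB1 complex partners to -0.68 for the transcription factors coactivated by PGC-1, and PPM1E stands alone at 3.73.

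By distance in log2 FPKM over both groups, the genes of these lists most like PRKAA1 were MELK at a distance of 0.43, TFAM at 0.59 and GABPA at 0.62, of 79 compared. The likeness rests on the same 2 group values.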

How the data were processed

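Strand-specific paired-end RNA-Seq of 6 PC-3 samples was aligned by the authors with TopHat2 2.0.13 to Hs37D5 (GRCh37 with decoy) and assembled and compared with Cufflinks 2.2.1. The authors' deposited table gives 1 FPKM per group at 406165 loci. Its other columns (log2 fold changes, test statistics, p and q) are their own comparison and were not used. Depth per sample cannot be read from it. A count or replicate test could not be run on group values. Starts were converted to count from 1.

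Per symbol, FPKM ratios were computed in Python 3.11.15 (numpy 2.4.6, pandas 2.3.3) without a pseudocount, and the functions were tested on simulated data. The 10 genes and all lists were chosen with earlier results of these data known. Named were the 10 genes, ZFP36, the markers, list genes past 2-fold, the lowest and highest of each list, and 3 genes nearest PRKAA1; other list genes were named after their values were seen, and a few genes of this rule are not reported here. Transcripts came from GENCODE release 29 (GRCh38), for sequence only. Alternatives were pseudocounts of 0.1 and 1, other minimums, other loci, rescaling and centring. Nothing shows that samples came from separate cultures.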

Additional observations from a re-analysis of the deposited data

Results flagged for a closer look

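Inside the span of PRKAG1, 2 of the 5 loci without a name had a higher FPKM with TTP than without. The PRKAG1 locus itself changed by -0.12, or by 0.12 relative to the median of all symbols. The 2 loci without a name read 0.675 FPKM in tdTom and 1.16 in TTP-tdTom, and 0.514 and 0.942. They were looked at because they lie outside the comparison of named genes. Both levels are low, the values have no replicate spread, and what the loci are was not tested. Of named symbols past the minimum 78.5% were lower with TTP, and the share over all loci without a name was not computed. The MLL2 loci in the same span read 2.40 FPKM in tdTom and 2.74 in TTP-tdTom, and 0.267 and 0.244.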

How the results depend on the processing

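With a pseudocount of 1, 1 member (PRKAA1) was at least 2-fold lower (5.24% of all symbols), and the members' median was -0.38. Centred on the median of all symbols, 0 were (4.24%), 3 stayed at least 1.5-fold lower and the median was -0.25. Centred on the GC group, 0 of 9 were 2-fold lower (2.08% of the 11876 symbols with a transcript), 0 were 1.5-fold lower (7.76%) and the median was -0.24. The median was -0.30 without a minimum, with PPARGC1A included, and -0.67 with a minimum of 5 FPKM, which kept 6 members. PRKAA1, PRKAA2, CAB39, PRKAG2 and PPARGC1B were lower in each alternative that kept them and PRKAB2 was higher in all 12. PRKAB1 and STK11 turned positive on rescaling to the same FPKM sum, at 0.05 and 0.03, and, like PRKAG1, on both centrings. An alternative chosen after seeing the data, STK11 at its other row, gave 3 members 2-fold lower, and another, loci of a single symbol, left out PRKAG1 and gave 2.

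No paired analysis was possible because the table holds 1 value per group, and no replicate was left out for the same reason. The depth behind low values such as those of STK11 and PPARGC1A is unknown.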
